A study of Mus musculus with 31 samples.

Results

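MPP2 cells were compared with short-term haematopoietic stem cells (ST-HSC), both sorted from the bone marrow of wild-type C57BL/6 mice. The comparison uses the 6 arrays whose labels name these populations, 3 of MPP2 and 3 of ST-HSC, of 31 in the series. RNA of 20000 double-sorted cells per sample was amplified and hybridised to Affymetrix whole-transcript arrays, which carry probes along each transcript. The series covers 9 populations from stem cells to granulocytes. Both gates took lineage-negative, cKit-positive, Sca1-positive, Flk2-negative cells. MPP2 were CD48-positive and CD150-positive, and ST-HSC were negative for both. MPP3, the CD48-positive and CD150-negative cells of the same gate, serve as a further population through the 2 arrays on the scale of the other 6. The labels describe the replicates as biological and give no age, sex, animal or pool, so the p-values measure the spread between these samples.

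ST-HSC rebuild blood for a limited time after transplantation, and the multipotent progenitors MPP2, MPP3 and MPP4 lie downstream of stem cells. MPP2 are known for a bias towards megakaryocytes and red cells, MPP3 for a myeloid bias and MPP4 for lymphoid potential. Stem cells divide rarely, whereas progenitors cycle. Transcripts of the mitotic machinery build up before division, mostly in the G2 phase, and those of DNA replication around the start of S phase.

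The deposited values are log2 levels, and all changes below are MPP2 minus ST-HSC on this scale, where 1 unit is a doubling. The 6 array medians lay between 7.78 and 7.83. Across genes, ST-HSC arrays correlated with each other at 0.987 to 0.988 and MPP2 arrays at 0.967 to 0.976. MPP2 3 lay nearer to the ST-HSC arrays (0.972 to 0.977) than MPP2 1 and 2 did (0.953 to 0.966). MPP2 2 also stood apart in sex-linked transcripts. Its Xist level was 11.77, against 6.00 to 6.57 in the other 5 arrays, and its Y-linked Eif2s3y level was 4.65, against 9.32 to 10.23. Neither gene was called, and counts without MPP2 2 and MPP2 3 are given below.

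The genes of the sort markers were read as a check of the labels, since the gates were set on their proteins. Slamf1, which encodes CD150, stood at 7.37, 7.13 and 7.85 in MPP2 and at 6.08, 5.39 and 5.90 in ST-HSC. Cd48 stood at 10.60, 10.14 and 9.63 in MPP2 and at 6.69, 7.94 and 7.81 in ST-HSC. Both genes were higher in every MPP2 array, as sorted. Kit (11.18 to 11.49 in MPP2, 11.63 to 11.88 in ST-HSC) and Cd34 (11.36 to 11.38 and 11.49 to 11.64) were not called. The Mac1 gene Itgam stayed between 6.93 and 7.34 and the Gr1 gene Ly6g between 5.44 and 6.05 in all 6 arrays. Flt3, which encodes Flk2, differed although both gates were Flk2-negative. It stood at 10.24, 10.32 and 10.32 in ST-HSC and at 8.29, 9.09 and 8.55 in MPP2, a change of -1.65 ± 0.19 (SE, limma adjusted p = 0.00833, or 0.0535 without ST-HSC 1).

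Between MPP2 and ST-HSC, 487 of 19938 genes (2.44%) passed an adjusted p of 0.05 in limma's moderated two-sided test (Benjamini-Hochberg) and are termed called. Of these, 257 (1.29% of all genes) were higher in MPP2 and 230 (1.15%) were lower. The rises were larger: 161 genes rose and 93 fell by more than 2-fold, and 41 rose and 6 fell by more than 4-fold. The median change of all genes was 0.03. All 487 called genes had groups that do not overlap, as did 11.8% of all genes with MPP2 above and 10.3% with MPP2 below. A fit of all 31 arrays after joint quantile normalization turned the balance, with 572 genes higher and 796 lower. At an unadjusted p under 0.05 in limma's test, 1288 genes were higher and 1802 lower. List counts on either basis below are set against these totals of 19938 genes. The count of 487 fell to 148, 296 and 195 without ST-HSC 1, 2 and 3, and 128 genes (101 higher, 27 lower) were called without each of the 6 arrays in turn. Without MPP2 2 it was 366. Without MPP2 3 it was 600, and the fallers among them numbered 387.

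**Figure D1:**
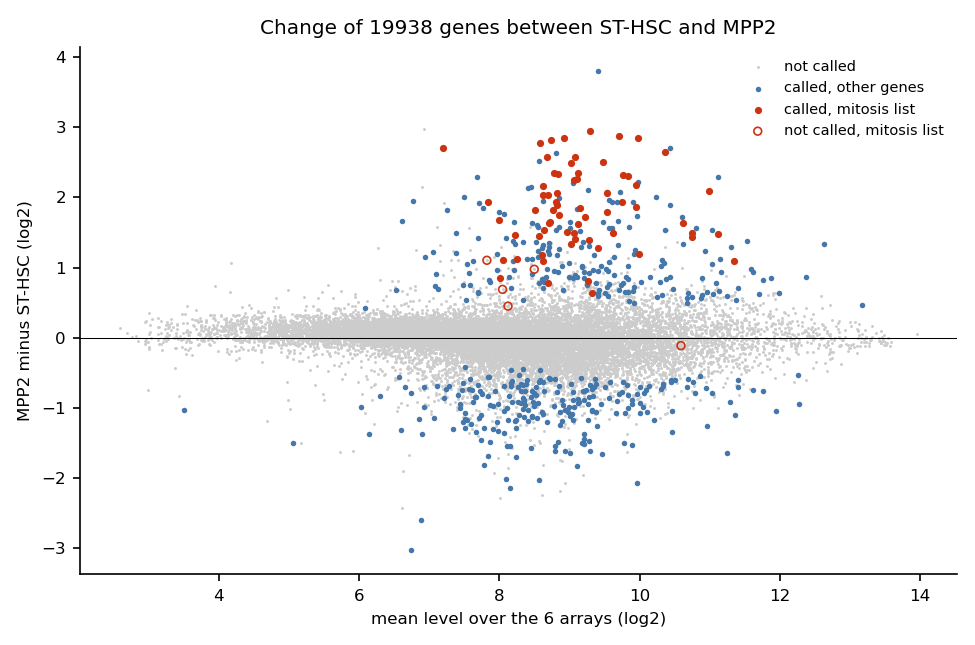
Each point is 1 of 19938 genes, with its mean log2 level over the 6 arrays on the horizontal axis and its change (MPP2 minus ST-HSC, log2) on the vertical axis. Coloured points are the 487 called genes; 65 of the 70 measured mitosis genes (red) are called and all of these lie above 0.

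Of the lists of cell programmes, apart from the mitotic roles given below, that of mitosis held the largest share of called genes. Of the 70 measured members of the mitosis list, 65 rose in MPP2, none fell and 5 were not called, with a median change of 1.77, against 1.29% of all genes called higher and a median of 0.03. Of these 65 calls, 48 held without each of the 6 arrays in turn, and 49 to 62 members were called when 1 array was left out (49 without ST-HSC 1, 60 without MPP2 2, 61 without MPP2 3). In this bulk RNA, more cells that express a gene and more of its RNA per cell cannot be told apart.

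The proliferation marker Mki67 stood at 9.12, 8.98 and 9.02 in ST-HSC and at 11.73, 11.72 and 11.61 in MPP2. The groups were far apart and the 3 arrays of each nearly equal, which gave a 6.27-fold rise (2.65 ± 0.09, SE, n = 3 and 3, limma adjusted p = 9.25e-05). Kif15, a spindle motor that helps keep the poles apart, stood at 7.43, 7.58 and 7.49 in ST-HSC and at 10.33, 10.33 and 10.41 in MPP2 (7.24-fold, 2.86 ± 0.09, adjusted p = 9.16e-05). Cdk1, the kinase that drives entry into mitosis, rose from 8.61, 8.95 and 8.36 to 10.36, 10.26 and 10.68 (1.79 ± 0.18, adjusted p = 0.00463).

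The rise ran through each part of the mitotic machinery, grouped here by role after the values were seen, with some genes in more than 1 role. Not every gene of these roles is on the mitosis list, so the counts by role are not parts of its count. Among kinetochore and centromere genes, whose products join chromosomes to microtubules, 17 of 17 rose (median 1.94). Nuf2, of the complex that binds microtubules, stood at 7.47, 7.85 and 8.15 in ST-HSC and at 10.68, 10.91 and 10.72 in MPP2. Its change of 2.95 ± 0.17 (adjusted p = 0.00064) was followed by that of the kinetochore scaffold Knl1 (2.88 ± 0.13, adjusted p = 0.000385). The centromeric histone gene Cenpa changed least of the 17, by 0.64 ± 0.10 (adjusted p = 0.0273, called without only 1 of the 6 arrays).

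Of the spindle motors and microtubule binders 20 of 21 rose (median 1.94). Kif11, the motor that pushes the spindle poles apart, rose from 8.83, 8.56 and 8.27 to 11.30, 11.53 and 11.37 (2.85 ± 0.15, adjusted p = 0.000468). The microtubule binder gene Hmmr rose by 2.78 ± 0.10 (adjusted p = 0.000102) and Prc1, whose product bundles the spindle midzone, by 2.58 ± 0.29 (adjusted p = 0.00702, 0.053 without ST-HSC 1). Kif20a, a cytokinesis motor, was the exception at 0.69 ± 0.18 (adjusted p = 0.107).

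All 12 checkpoint and mitotic kinase genes rose (median 1.73). The checkpoint kinase gene Bub1 stood at 7.49, 7.25 and 7.22 in ST-HSC and at 10.09, 9.93 and 10.41 in MPP2 (2.82 ± 0.15, adjusted p = 0.000468). Ttk, a further checkpoint kinase, rose by 2.57 ± 0.19 (adjusted p = 0.00134). Plk1, which acts from mitotic entry to exit, rose by 1.45 ± 0.23 (adjusted p = 0.0261). That call ended without ST-HSC 1, MPP2 2 or MPP2 3, with an adjusted p of up to 0.118.

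The chromosomal passenger complex, which corrects faulty attachments, rose in all 4 members, with 2.32 ± 0.16 for Birc5 (adjusted p = 0.00114) and 1.62 ± 0.18 for its kinase gene Aurkb (adjusted p = 0.00618). Of 9 condensin and topoisomerase genes, which compact and untangle chromosomes, 7 rose, among them Top2a by 2.09 ± 0.16 (adjusted p = 0.00136). Ncapd3 (0.71 ± 0.19, adjusted p = 0.128) and Ncaph2 (0.35 ± 0.13, adjusted p = 0.274), both of condensin II, were not called. Cyclins, CDC25 and CKS genes rose in 5 of 6, led by the cyclin gene Ccna2 (2.17 ± 0.12, adjusted p = 0.000483).

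Genes of the exit from mitosis were also among those that rose. Of 5 genes of the anaphase promoting complex and separase group 4 rose, with a median of 0.95. The ubiquitin conjugating enzyme gene Ube2c rose by 1.33 ± 0.12 (adjusted p = 0.00305). Pttg1, which encodes the separase inhibitor securin, was the 1 mitosis gene below 0, at -0.11 ± 0.18 (adjusted p = 0.806). Cytokinesis genes rose in 4 of 6, with Ect2 at 1.74 ± 0.17 (adjusted p = 0.00429) and Racgap1 not called at 0.98 ± 0.22 (adjusted p = 0.0719).

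Many promoters of the mitosis genes hold a short element. The cell cycle homology region, read as TTTGAA or TTCGAA on either strand, is the element through which complexes of the MuvB family are known to hold mitotic genes silent outside G2, often beside CCAAT boxes bound by NF-Y. In RefSeq windows (GRCm38.p6) from 250 bases before to 50 bases after a start, it occurred in 48 of 62 windows of the measured mitosis genes (77.4%, 58 genes with a window). Among the windows of all genes tested it occurred in 16.5% of 19177. For the DNA replication list it was in 19.3% of 57 windows, near the share of all genes. CCAAT on either strand was in 74.2% of the mitosis windows, 63.2% of the replication windows and 37.4% of all windows. The letters AGATAA on either strand, the core of the GATA motif, were in 4.84% of the mitosis windows and 9.25% of all. A match describes the letters only. The 100 bases before the start are shown for 4 genes named above, 5′ to 3′ on the gene's strand, with any matches to the homology region and to CCAAT in capitals.
Kif11 promoter: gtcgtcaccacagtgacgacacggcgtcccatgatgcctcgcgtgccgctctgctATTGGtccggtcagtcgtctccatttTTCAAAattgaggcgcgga
Cdk1 promoter: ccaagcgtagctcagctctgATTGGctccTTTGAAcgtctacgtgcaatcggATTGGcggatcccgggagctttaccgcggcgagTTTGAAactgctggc
Kif15 promoter: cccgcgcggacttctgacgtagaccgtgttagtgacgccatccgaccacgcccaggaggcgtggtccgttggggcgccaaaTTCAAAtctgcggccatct
Hmmr promoter: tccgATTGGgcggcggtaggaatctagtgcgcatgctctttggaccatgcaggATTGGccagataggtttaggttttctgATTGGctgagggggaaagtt
These stretches lie at chr19:37376282-37376381 on the plus strand (Kif11), chr10:69352913-69353012 on the minus strand (Cdk1), chr9:122950981-122951080 on the plus strand (Kif15) and chr11:40733438-40733537 on the minus strand (Hmmr). The homology region begins 19 bases before the start in Kif11 and in Kif15, and 71 and 15 bases before it in Cdk1. Hmmr, which rose as much, holds 3 CCAAT boxes in this stretch and no homology region.

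**Figure D2:**
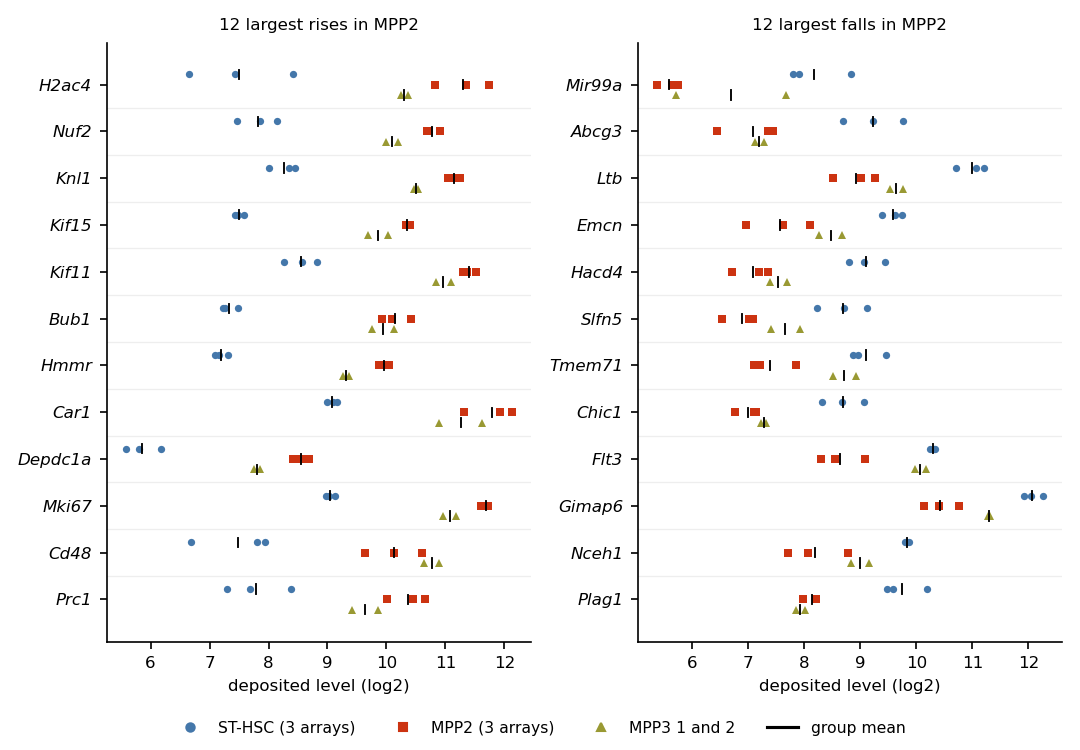
Deposited log2 levels by array of the 12 genes with the largest rise (left) and the 12 with the largest fall (right) among called genes with a full name, with circles for the 3 ST-HSC arrays, squares for the 3 MPP2 arrays, triangles for MPP3 1 and 2, and bars for group means. In all 24 genes the MPP2 squares lie clear of the ST-HSC circles; Cd48 and Flt3 encode sort markers.

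Genes of DNA replication rose less far. Of 57 measured, 18 rose, none fell and 39 were not called (1.29% of all genes called higher). All 57 changes were above 0, with a median of 0.69. The count was 9 without ST-HSC 1, 8 without ST-HSC 3 and 12 without MPP2 3, and 37 in the fit of 31 quantile-normalized arrays. The enzymes that make DNA precursors were among the 18. Rrm2, of ribonucleotide reductase, stood at 7.92, 8.02 and 8.58 in ST-HSC and at 9.80, 9.64 and 10.06 in MPP2 (3.16-fold, 1.66 ± 0.20, adjusted p = 0.00843). Its partner Rrm1 rose by 1.34 ± 0.10 (adjusted p = 0.00134) and the thymidylate synthase gene Tyms by 1.36 ± 0.13 (adjusted p = 0.00341).

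Clspn, which couples the fork to the replication checkpoint, rose from 8.29, 8.35 and 8.02 to 9.62, 9.83 and 9.90 (1.56 ± 0.13, adjusted p = 0.00212). The repressor gene E2f8, itself a target of E2F, rose most of the list, by 2.11 ± 0.25 (adjusted p = 0.0088, 0.0604 without ST-HSC 1). Of the replicative helicase, Mcm2 rose by 0.73 ± 0.13 (adjusted p = 0.0386, up to 0.164 without ST-HSC 1, 2 or 3 or MPP2 1 or 2), and Mcm5 changed by 0.94 ± 0.21 (adjusted p = 0.072). The sliding clamp gene Pcna was high in both groups, at 12.59 to 12.86 in ST-HSC and 12.95 or above in MPP2, and was not called (adjusted p = 0.311).

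Recombination and Fanconi repair genes rose in 6 of 31 (median 0.60, none fell), against 1.29% of all genes called higher. In the fit of 31 quantile-normalized arrays 16 rose, beside 572 of all 19938 genes. Fancd2, which marks stalled forks, rose by 1.19 ± 0.14 (adjusted p = 0.0088) and Rad54b, a motor of strand exchange, by 1.12 ± 0.12 (adjusted p = 0.00576). Both calls held without each array in turn. Among G1 regulators 4 of 20 rose and none fell (median 0.24, against 1.29% of all genes called higher). Cks1b, a subunit of cyclin kinases and of the SKP2 ligase, rose from 10.83, 11.07 and 10.65 to 12.02, 12.37 and 12.29 (1.37 ± 0.14, adjusted p = 0.00571), and the cyclin gene Ccne2 by 1.16 ± 0.15 (adjusted p = 0.0126).

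The 2 other G1 genes that rose were the G1 kinase gene Cdk6 (0.94 ± 0.15, adjusted p = 0.0264) and Cdkn2c, which encodes an inhibitor of that kinase (1.43 ± 0.21, adjusted p = 0.0179). Without ST-HSC 2 or 3 the call of Cdkn2c ended (adjusted p up to 0.0812), and that of Cdk6 ended without ST-HSC 1, 2 or 3 or MPP2 1 or 3 (up to 0.0881). The D cyclin gene Ccnd1 (-0.35 ± 0.11, adjusted p = 0.176) and the CDK inhibitor genes Cdkn1b (-0.36 ± 0.20, adjusted p = 0.45) and Cdkn1c (0.02 ± 0.09, adjusted p = 0.94) were not called. No gene passed limma's test in the MYC network (12 measured, median -0.04) or in ribosome biogenesis (46 measured, median 0.12). At an unadjusted p under 0.05 the MYC network had 1 gene higher and 1 lower and ribosome biogenesis 8 higher, and with 31 quantile-normalized arrays 2 ribosome biogenesis genes were called higher. Of all 19938 genes, 1288 were higher and 1802 lower at that p, and 572 were called higher in that fit. Myc itself stood at 11.62, 11.82 and 11.53 in ST-HSC and at 11.45, 11.73 and 11.76 in MPP2 (-0.01 ± 0.12, adjusted p = 0.982).

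**Figure D3:**
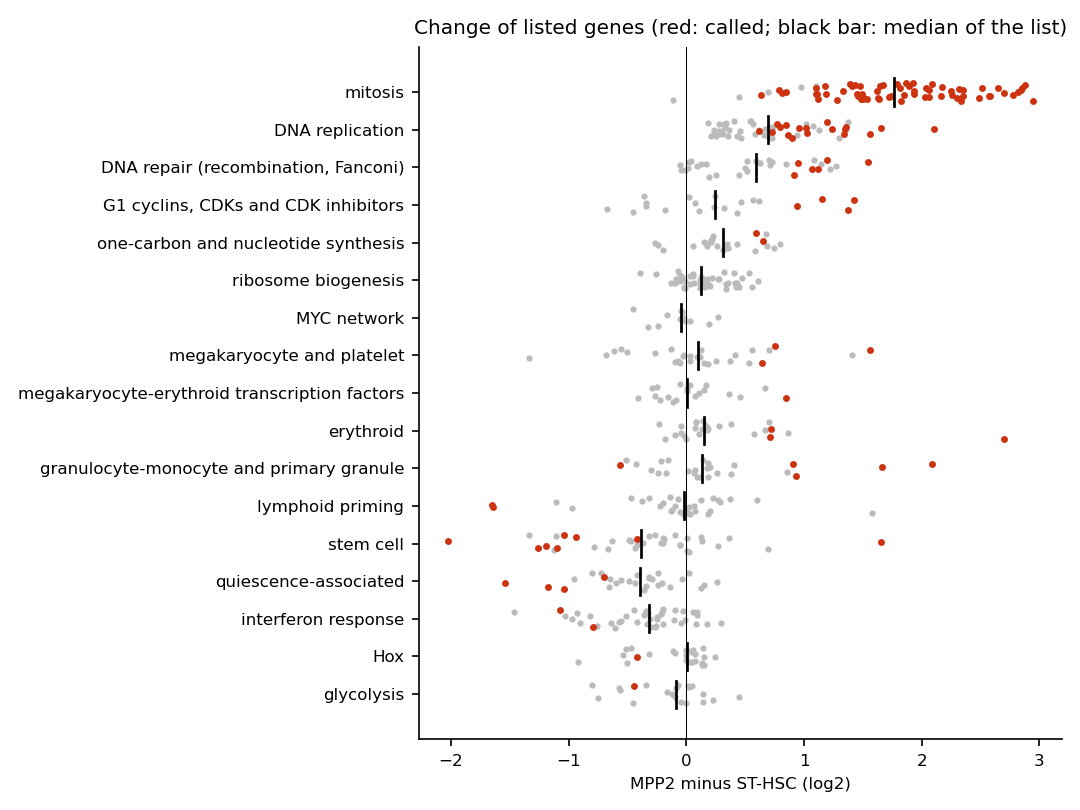
Each point is a measured gene of a list, placed at its change (MPP2 minus ST-HSC, log2); red points are called, grey are not, and black bars are list medians. The mitosis list has its median at 1.77 and DNA replication at 0.69, while the stem cell, quiescence and interferon lists have medians of -0.38, -0.39 and -0.32.

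Of 38 measured genes of the stem cell list, 7 fell, 1 rose and 30 were not called (1.15% of all genes called lower), with 29 of 38 below 0 and a median of -0.38. The 1 that rose was the sort marker gene Slamf1. Procr, which encodes the EPCR surface marker of stem cells, stood at 9.20, 8.99 and 8.83 in ST-HSC and at 7.75, 7.89 and 7.80 in MPP2, a 2.28-fold fall (-1.19 ± 0.12, adjusted p = 0.00429). Hlf, a transcription factor gene of stem cells, stood at 11.95, 11.87 and 11.92 in ST-HSC and at 10.91, 10.67 and 10.86 in MPP2 (-1.10 ± 0.10, adjusted p = 0.00313). Both falls held without each array in turn.

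The other called members rested on fewer arrays, and only 2 of the 38 were called lower without ST-HSC 1 or without ST-HSC 3, 4 without MPP2 2, and 16 in the fit of 31 quantile-normalized arrays. Emcn, which encodes the sialomucin endomucin, stood at 9.74, 9.39 and 9.63 in ST-HSC and at 7.62, 6.97 and 8.09 in MPP2 (-2.03 ± 0.27, adjusted p = 0.0126, up to 0.0796 without ST-HSC 1 or 3). Mllt3, a regulator of stem cell maintenance, fell by 1.26 ± 0.22 on the log2 scale (adjusted p = 0.0341, up to 0.136 without any of the arrays other than MPP2 3). Txnip, an inhibitor of thioredoxin, fell by 1.04 ± 0.15 (adjusted p = 0.0181, up to 0.101 without ST-HSC 1 or 3 or MPP2 2) and lies within the annotated transcript Gm15441 (-1.22, adjusted p = 0.0282).

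Other regulators of stem cells did not pass the test. Mecom, a zinc finger regulator, stood at 10.72, 10.02 and 9.96 in ST-HSC and at 9.34, 8.83 and 9.20 in MPP2 (-1.11 ± 0.23, adjusted p = 0.0608). Meis1, a homeobox partner of HOX proteins, changed by -0.49 ± 0.15 (adjusted p = 0.161) and Fgd5, a stem cell reporter locus, by -0.41 ± 0.12 (adjusted p = 0.161). Of 25 Hox genes 1 fell (1.15% of all genes called lower), Hoxb5 (-0.42 ± 0.08, adjusted p = 0.0478), and that call ended without any 1 of the 6 arrays (up to 0.162).

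The largest fall among genes with a full name was that of the miRNA gene Mir99a. It stood at 8.82, 7.80 and 7.90 in ST-HSC and at 5.37, 5.75 and 5.64 in MPP2, a 6.02-fold fall (-2.59 ± 0.27, adjusted p = 0.00554) that held without each array in turn. The mature miRNA is shown with those of the genes Mir100 and Mir99b, from RefSeq, 5′ to 3′, with the seed (bases 2 to 8) in capitals.
miR-99a-5p: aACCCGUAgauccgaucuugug
miR-100-5p: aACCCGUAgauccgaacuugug
miR-99b-5p: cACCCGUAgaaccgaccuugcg
The 3 share 1 seed, and miR-99a-5p lies at chr16:77598940-77598961 on the plus strand (GRCm38.p6). The genes of the same seed did not pass the test, with Mir100 at 0.11 ± 0.13 (adjusted p = 0.71) and Mir99b at 0.17 ± 0.11 (adjusted p = 0.507). Nor did Mir99ahg, named as the host gene of Mir99a (0.04 ± 0.11, adjusted p = 0.883). The arrays measure amplified RNA along transcripts, and whether this probe reads mature or precursor RNA was not tested.

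Other large falls followed. Ltb, which encodes lymphotoxin beta, a membrane cytokine of lymphoid cells, stood at 11.06, 10.71 and 11.21 in ST-HSC and at 8.51, 9.01 and 9.26 in MPP2 (4.19-fold, -2.07 ± 0.21, adjusted p = 0.00553). Gimap6, a GTPase gene of lymphocytes, stood at 12.25, 12.04 and 11.92 against 10.76, 10.13 and 10.40 (-1.64 ± 0.17, adjusted p = 0.00576). Both held without each array. Plag1, a zinc finger factor gene, changed by -1.62 ± 0.19 (adjusted p = 0.00857), Hacd4, an enzyme gene of very long chain fatty acid synthesis, by -2.01 ± 0.22 (adjusted p = 0.00605), and Chic1 by -1.69 ± 0.20 (adjusted p = 0.00861).

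The calls of Abcg3, Slfn5, Tmem71 and Nceh1 ended without ST-HSC 1. The transporter gene Abcg3 stood at 9.76, 8.69 and 9.22 in ST-HSC and at 6.44, 7.35 and 7.43 in MPP2 (-2.15 ± 0.34, adjusted p = 0.0245, up to 0.1 without ST-HSC 1 or 3). The Schlafen gene Slfn5 changed by -1.81 ± 0.24 (adjusted p = 0.0135, 0.0804 without ST-HSC 1) and Tmem71 by -1.70 ± 0.23 (adjusted p = 0.0147, 0.065 without it). The cholesterol ester hydrolase gene Nceh1 changed by -1.64 ± 0.25 (adjusted p = 0.0197, up to 0.104 without ST-HSC 1, 2 or 3).

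Of 30 measured megakaryocyte and platelet genes, 3 rose and none fell (1.29% of all genes called higher), with a median of 0.10. With 31 quantile-normalized arrays 7 rose and 2 fell, beside 572 and 796 of all 19938 genes. Pf4, which encodes platelet factor 4, a chemokine of platelet granules, stood at 9.73, 9.91 and 10.45 in ST-HSC and at 11.56, 11.68 and 11.54 in MPP2. The groups did not overlap, and the rise was 2.95-fold (1.56 ± 0.18, adjusted p = 0.00804), also called without each array. The thrombin receptor gene F2r rose by 0.65 ± 0.12 (adjusted p = 0.0377) and the urea transporter gene Slc14a1 by 0.75 ± 0.15 (adjusted p = 0.0494). These 2 calls ended without ST-HSC 1, 2 or 3 or MPP2 2, and that of Slc14a1 also without MPP2 3 (adjusted p up to 0.148 and 0.186).

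Other platelet genes of the list were not called. The integrin gene Itga2b, which encodes CD41, stood at 8.50, 8.53 and 8.57 in ST-HSC and at 9.0, 9.08 and 9.64 in MPP2 (0.70 ± 0.17, adjusted p = 0.0927). Gp5, of the von Willebrand factor receptor, changed by 1.40 ± 0.38 (adjusted p = 0.128), with MPP2 3 highest at 10.50. Vwf itself changed by 0.13 ± 0.10 (adjusted p = 0.6).

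Of the 20 transcription factors of the megakaryocyte and red cell lineages 1 rose (1.29% of all genes called higher), Gata1. It stood at 7.93, 8.32 and 8.30 in ST-HSC and at 8.80, 9.20 and 9.09 in MPP2 (0.84 ± 0.15, adjusted p = 0.0388), a call that ended without any of the arrays other than MPP2 1 (up to 0.129). Its partner gene Zfpm1, which encodes FOG1, changed by 0.45 ± 0.09 (adjusted p = 0.0519) and Klf1, the red cell regulator, by 0.67 ± 0.14 (adjusted p = 0.0562). Gata2, expressed earlier, changed by 0.17 ± 0.18 (adjusted p = 0.704).

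In the erythroid list 3 of 26 rose and none fell (median 0.15), against 1.29% of all genes called higher. With 31 quantile-normalized arrays 6 rose, beside 572 of all 19938 genes. Car1, a carbonic anhydrase gene of early red cells, stood at 9.0, 9.16 and 9.09 in ST-HSC and at 12.12, 11.32 and 11.92 in MPP2 (6.51-fold, 2.70 ± 0.20, adjusted p = 0.00134), and was called without each array in turn. Car1 was also high in MPP3 1 and 2, at 10.89 and 11.63, and MPP2 minus MPP3 was not called (0.53 ± 0.26, limma adjusted p = 0.602). Aqp1, a water channel of the red cell membrane, rose by 0.72 ± 0.10 (adjusted p = 0.0145, up to 0.0782 without ST-HSC 1 or 3) and the adhesion gene Icam4 by 0.71 ± 0.12 (adjusted p = 0.0264, up to 0.125 without ST-HSC 1, 2 or 3). Epor, the erythropoietin receptor gene, changed by 0.19 ± 0.10 (adjusted p = 0.415). No gene of haem synthesis was called among 14 by limma, with 3 higher at an unadjusted p under 0.05 (1288 of all 19938 genes at that p).

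Markers of later red cells were read beside these. Of 8 erythroblast markers 1 was called (1.29% of all genes called higher), Hemgn (0.77 ± 0.14, adjusted p = 0.0391, a call that ended without any 1 array, up to 0.148). The log2 of their summed linear level ran from 11.03 to 11.18 in MPP2 and from 10.70 to 10.75 in ST-HSC. Alas2, which makes haem in erythroblasts, was at 7.64 to 8.05 in MPP2 and 7.79 to 8.20 in ST-HSC. The part of erythroblast RNA in the rises of the erythroid list was not tested.

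Of 26 granulocyte and monocyte genes 4 were called higher (1.29% of all genes) and 1 lower (1.15%), with a median of 0.13. With 31 quantile-normalized arrays 2 were higher, beside 572 of all 19938 genes. Mpo, the peroxidase of primary granules, stood at 8.20, 9.28 and 8.54 in ST-HSC and at 10.15, 11.14 and 10.98 in MPP2 (2.08 ± 0.34, adjusted p = 0.0265, up to 0.118 without ST-HSC 1 or 3 or MPP2 2 or 3). The granule membrane gene Nkg7 rose from 8.76, 8.94 and 8.88 to 10.55, 10.38 and 10.65 (1.67 ± 0.11, adjusted p = 0.000788), and held without each array. Ctsg, the cathepsin G gene, rose by 0.93 ± 0.12 (adjusted p = 0.0126) and Ms4a3, of early granulocytes, by 0.90 ± 0.13 (adjusted p = 0.0149). Both of these ended without any of the 3 ST-HSC arrays (up to 0.0696 and 0.0701).

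The granulocyte colony stimulating factor receptor gene Csf3r fell, by 0.57 ± 0.11 on the log2 scale (adjusted p = 0.0443, ended without any 1 array, up to 0.144). Elane, the neutrophil elastase gene (0.27 ± 0.16, adjusted p = 0.494), and the myeloid regulator gene Cebpa (0.38 ± 0.13, adjusted p = 0.226) were not called. Of the 21 genes of the mast cell, basophil and eosinophil list none was called by limma. At an unadjusted p under 0.05, 4 of the list were higher, beside 1288 of all 19938 genes. With 31 quantile-normalized arrays 3 were called higher, beside 572 of all genes. Its gene Cpa3, a mast cell protease, ranged from 7.44 to 9.25 among MPP2 arrays and from 6.46 to 7.01 in ST-HSC (1.57 ± 0.42, adjusted p = 0.121). The highest change of that list was 2.14, also not called.

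In the lymphoid priming list 2 of 31 fell and none rose (median -0.02, against 1.15% of all genes called lower), and these were Flt3 and Gimap6. The highest change of the list was 1.58, which was not called. With 31 quantile-normalized arrays 5 fell and 1 rose, beside 796 and 572 of all 19938 genes. Satb1, a chromatin organiser of lymphoid progenitors, stood at 9.63, 9.30 and 8.76 in ST-HSC and at 7.87, 8.52 and 8.41 in MPP2 (-0.97 ± 0.25, adjusted p = 0.118). Dntt, which adds bases at antigen receptor joints, changed by 0.29 ± 0.14 (adjusted p = 0.384), and Il7r, the interleukin 7 receptor gene, by 0.60 ± 0.14 (adjusted p = 0.0912).

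MPP3 was read for differences between the CD48-positive progenitors. It was tested against MPP2 through MPP3 1 and 2, in 1 fit of 8 arrays that share the ST-HSC samples. With 2 MPP3 arrays, a gene that was not called is not shown to be equal. Between MPP2 and MPP3, 39 genes (0.196%) were called, 2 higher in MPP2 (0.01%) and 37 lower (0.186%). Without 1 array the count ran from 10 (without MPP3 1) to 75 (without MPP2 3), and it was 19 to 25 without MPP3 2, MPP2 1 or any ST-HSC array. In the fit of all 31 quantile-normalized arrays, with 3 MPP3 arrays, it was 211.

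Pf4 was 1 of the 2 genes higher in MPP2. It stood at 8.78 and 8.69 in MPP3, below all ST-HSC arrays as well as all MPP2 arrays, and MPP2 minus MPP3 was 2.86 ± 0.19 (adjusted p = 0.00211, at most 0.0247 without any 1 of the 8 arrays). The other was Apoe, the apolipoprotein E gene, at 10.49, 10.23 and 10.25 in ST-HSC, 11.67, 11.52 and 11.47 in MPP2, and 10.68 and 10.51 in MPP3. Apoe exceeded ST-HSC by 1.23 ± 0.11 (adjusted p = 0.00313) and MPP3 by 0.96 ± 0.12 (adjusted p = 0.0248). The difference from MPP3 was called without only ST-HSC 1 or MPP2 3, and reached an adjusted p of 0.251 without others. Of 30 megakaryocyte and platelet genes, 11 were higher in MPP2 than in MPP3 and 1 lower at an unadjusted p under 0.05 in limma's test. Beside these stood 847 and 900 of all 19938 genes. In the fit of 31 quantile-normalized arrays 6 of the 30 were called higher and 0 lower, beside 56 and 155 of all genes.

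Between MPP2 and MPP3, 5 of 26 granulocyte and monocyte genes and 5 of 31 lymphoid priming genes were called lower in MPP2, against 0.186% of all genes. None was called higher in either list. Ctsg was at 11.41 and 10.65 in MPP3 against 7.79, 8.14 and 8.17 in MPP2 (-3.00 ± 0.21, adjusted p = 0.00211). Dntt was at 9.41 and 8.99 in MPP3 against 6.79, 6.60 and 7.02 in MPP2 (-2.40 ± 0.17, adjusted p = 0.00211), and Clec12a, a myeloid lectin gene, differed by -2.79 ± 0.16 (adjusted p = 0.0017). These 3 held without each of the 8 arrays. Il7r differed by -1.79 ± 0.16 (adjusted p = 0.00419), except without MPP3 1 (0.0726).

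Ms4a3 (-2.44 ± 0.32, adjusted p = 0.034), Satb1 (-1.97 ± 0.26, adjusted p = 0.0386), Elane (-1.79 ± 0.26, adjusted p = 0.0499) and Flt3 (-1.43 ± 0.21, adjusted p = 0.0499) were called on fewer arrays. Ms4a3 ended without any ST-HSC or MPP2 array (up to 0.108). Satb1 ended without ST-HSC 2, MPP2 1 or 3 or either MPP3 array (up to 0.417), Flt3 without any array other than MPP2 2 (up to 0.378), and Elane without any other than MPP3 2 (up to 0.308). Mpo was at 13.03 and 12.70 in MPP3 and did not pass the test against MPP2 (-2.11, adjusted p = 0.1). Of 15 B and plasma cell markers 1 was called lower in MPP2 than in MPP3, against 0.186% of all genes (Ighm, a call that ended without MPP3 1 or 2, up to 0.0726). The antibody gene Igha, which is not on that list and was chosen after its values were seen, stood at 10.94 and 11.86 in MPP3 and at 7.59 to 8.42 in MPP2 (-3.47 ± 0.30, adjusted p = 0.00414, at most 0.0262 without any 1 array). The summed level of the 15 markers was 13.11 to 13.20 in MPP3 and 11.84 to 12.84 in MPP2 (log2), and the part of such RNA in the difference was not tested.

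**Figure D4:**
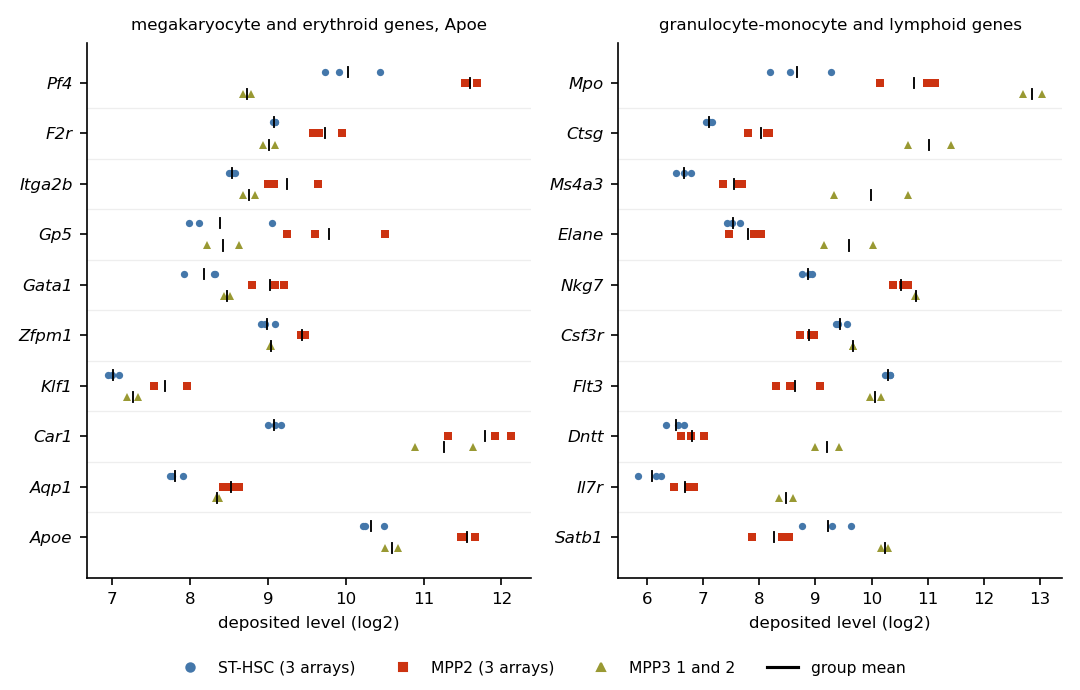
Deposited log2 levels by array of megakaryocyte and erythroid genes with Apoe (left) and of granulocyte-monocyte and lymphoid genes (right), with circles for ST-HSC, squares for MPP2, triangles for MPP3 1 and 2, and bars for group means. Pf4 lies between 11.54 and 11.68 in MPP2 and at 8.69 and 8.78 in MPP3, while Ctsg and Dntt are higher in both MPP3 arrays than in any MPP2 array.

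None of the 70 mitosis genes was called between MPP2 and MPP3 in limma's test, with a median of 0.37 (MPP2 minus MPP3). At an unadjusted p under 0.05, 30 of the 70 were higher in MPP2 and none lower, and in the fit of 31 quantile-normalized arrays 6 were called higher. Of all 19938 genes, 847 were higher and 900 lower at that p, and 56 were called higher in that fit. Against ST-HSC, whose arrays both contrasts share, 55 of the 70 were called higher in MPP3 (1.02% of all genes called higher there), with a median of 1.41. Kif15 was at 10.03 and 9.68 in MPP3 and Mki67 at 11.19 and 10.96, each below the MPP2 arrays (0.49 ± 0.12, adjusted p = 0.279 for Kif15; 0.61 ± 0.11, adjusted p = 0.109 for Mki67). Of the 487 genes called between MPP2 and ST-HSC, 14 were also called between MPP2 and MPP3, beside 39 of all 19938 genes. Both contrasts use the MPP2 arrays. Of the 257 called higher, 251 also lay above ST-HSC in MPP3, and of the 230 called lower, 217 lay below. These genes were selected on the same ST-HSC arrays, which favours equal signs. The counts of signs therefore do not by themselves show that MPP3 moved with MPP2. MPP3 minus ST-HSC was called for Car1 (2.17), Nkg7 (1.92), Procr (-1.05), Hlf (-0.80), Plag1 (-1.82) and Abcg3 (-2.03). Of these only Nkg7 held without each of the 8 arrays, and none was called between MPP2 and MPP3.

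Genes linked to quiescence fell in 4 of 28 and rose in none (median -0.39), against 1.15% of all genes called lower. Sesn3, a stress sensor that FOXO factors induce, stood at 9.66, 9.19 and 9.62 in ST-HSC and at 8.40, 8.13 and 8.40 in MPP2 (-1.18 ± 0.15, adjusted p = 0.0117, up to 0.0655 without ST-HSC 1 or 3). Besides Txnip the others were Klf12 (-1.54 ± 0.27, adjusted p = 0.0326) and the p53 target gene Trp53inp1 (-0.70 ± 0.12, adjusted p = 0.034). Each of these 2 was called without only 1 of the 6 arrays, with an adjusted p of up to 0.154 and 0.147. Without ST-HSC 1 none of the 28 was called, without ST-HSC 3 it was 1, without ST-HSC 2 or MPP2 1 or 2 it was 2, and with 31 quantile-normalized arrays 9 fell.

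Interferon response genes fell in 2 of 42 and rose in none, against 1.15% of all genes called lower, and 36 of 42 lay below 0 (median -0.32). With 31 quantile-normalized arrays 11 fell, and without ST-HSC 3 or MPP2 2 none did. Ifit3, an interferon-induced antiviral gene, fell from 7.73, 8.42 and 8.0 to 6.82, 7.08 and 7.03 (-1.07 ± 0.18, adjusted p = 0.0299) and Rtp4 by 0.80 ± 0.13 on the log2 scale (adjusted p = 0.025). The call of Ifit3 ended without ST-HSC 3 or any MPP2 array (up to 0.1) and that of Rtp4 without any array other than MPP2 1 (up to 0.0939). Ifit1 changed by -0.93 ± 0.20 (adjusted p = 0.0682).

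Cytokine receptor and adhesion lists were read next, beside 1.15% of all genes called lower and 1.29% higher. The fit of 31 quantile-normalized arrays called 572 of 19938 genes higher and 796 lower. Of 43 cytokine receptor genes none rose and 5 fell, among them the insulin receptor gene Insr, from 11.11, 11.01 and 10.84 to 9.91, 9.79 and 10.14 (-1.04 ± 0.13, adjusted p = 0.0088, 0.0574 without ST-HSC 1). Il6st, the shared signalling chain of interleukin 6 receptors, fell by 0.87 ± 0.17 (adjusted p = 0.048, up to 0.152 without any array other than MPP2 3). Of 51 adhesion and homing genes none rose and 5 fell (2 and 9 with 31 quantile-normalized arrays), among them Alcam, an immunoglobulin family adhesion gene (-1.45 ± 0.20, adjusted p = 0.0156, up to 0.0838 without ST-HSC 1, 2 or 3).

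Calls in the metabolic lists were set beside the 1.29% of all genes called higher and 1.15% called lower. Unadjusted counts here stand beside 1288 of 19938 genes higher and 1802 lower at p under 0.05. Those of the fit of 31 quantile-normalized arrays stand beside 572 higher and 796 lower. Of 25 one-carbon and nucleotide synthesis genes 2 rose, Shmt2 of mitochondrial folate metabolism (0.65 ± 0.10, adjusted p = 0.0223) and Ppat of purine synthesis (0.60 ± 0.10, adjusted p = 0.0268), and both ended without ST-HSC 1 or 3 or MPP2 1 or 2 (up to 0.112 and 0.12). In glycolysis 1 of 21 fell (Hk3), in cholesterol synthesis 1 of 19 (Sc5d), and in the tricarboxylic acid cycle none of 20 was called by limma (2 higher at an unadjusted p under 0.05). None of 11 genes of MHC class II presentation was called (5 lower at an unadjusted p under 0.05, 2 called lower with 31 quantile-normalized arrays), and 1 of 15 imprinted genes (Ppp1r9a), 1 of 21 p53 targets and 1 of 27 transporter and aldehyde dehydrogenase genes (Abcg3) fell. The calls of Hk3, Sc5d and Ppp1r9a ended without any of the ST-HSC arrays (adjusted p up to 0.163, 0.173 and 0.147).

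Markers of other cells were read in the same way. No gene was called by limma in the lists of B and plasma cells (15 measured), T and NK cells (20), monocytes, macrophages and dendritic cells (19) and endothelium and stroma (22). The largest change of a B and plasma cell marker was nevertheless 2.98, with 12 of the 15 above 0 and a median of 0.18. Of 22 mature granulocyte markers 1 fell, against 1.15% of all genes called lower. At an unadjusted p under 0.05, 2 B and plasma cell markers and 2 T and NK cell markers were higher, no monocyte marker moved, and 2 endothelial and stromal markers were higher and 2 lower. Of all 19938 genes, 1288 were higher and 1802 lower at that p. Summed levels of B and plasma cell markers ran from 11.71 to 11.83 in ST-HSC and 11.84 to 12.84 in MPP2 (log2). For mature granulocytes they ran from 11.96 to 12.75 and from 11.92 to 12.13. Cd3e of T cells (7.49 to 8.08 over the 6 arrays) and Adgre1 of macrophages (5.74 to 6.04) were not called.

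Across all 9 populations, after quantile normalization of the 31 arrays, levels of the genes that changed most are given as a description. Populations other than ST-HSC, MPP2 and MPP3 were deposited on other scales, as was MPP3 3. Differences from them therefore cannot be told apart from differences in processing, and no rank below was tested. Kif15 averaged 6.90 ± 0.08 (SD, n = 3) in ST-HSC, the lowest of the 9, and 8.40 ± 0.60 (n = 4) in LT-HSC. It was 10.09 ± 0.03 in MPP2, 9.54 ± 0.17 in MPP3 (n = 3), 9.39 ± 0.57 in MPP4 (n = 5) and 10.19 ± 0.09 in GMP (n = 4). Nuf2 averaged 7.26 ± 0.35 in ST-HSC and 10.51 ± 0.15 in MPP2, the lowest and highest means of the 9.

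H2ac4, a replication-dependent histone gene, changed most of all named genes. On the deposited scale it stood at 7.44, 8.42 and 6.66 in ST-HSC and at 10.83, 11.73 and 11.35 in MPP2 (3.80 ± 0.43, adjusted p = 0.00751, 0.0542 without ST-HSC 1). Quantile-normalized, it averaged 6.91 ± 0.97 in ST-HSC and 11.04 ± 0.44 in MPP2, with the other populations from 8.18 to 9.97.

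Among the falling genes, Mir99a averaged 7.62 ± 0.61 in ST-HSC and 7.49 ± 0.41 in LT-HSC, against 4.84 ± 0.23 in MPP2, the lowest mean of the 9. MPP4 held 7.16 ± 1.19, a spread that overlaps those of both stem cell populations. Low means of Mir99a were not particular to MPP2, with 5.51 in CMP, 5.18 in GMP, 5.24 in PreGr and 5.16 in Gr. Abcg3 averaged 9.63 ± 0.14 in LT-HSC, 8.83 ± 0.57 in ST-HSC and 6.41 ± 0.63 in MPP2, and the other 6 populations lay between 5.98 and 6.88. Ltb was highest in ST-HSC, at 10.79 ± 0.34, with 9.95 ± 0.24 in LT-HSC and 8.57 ± 0.38 in MPP2, and it was lowest in GMP, at 7.51 ± 0.13. Emcn was at 9.51 ± 0.28 in LT-HSC, 9.25 ± 0.20 in ST-HSC and 6.96 ± 0.66 in MPP2. Emcn was lower still in GMP (5.71), PreGr (5.39) and Gr (5.22).

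**Figure D5:**
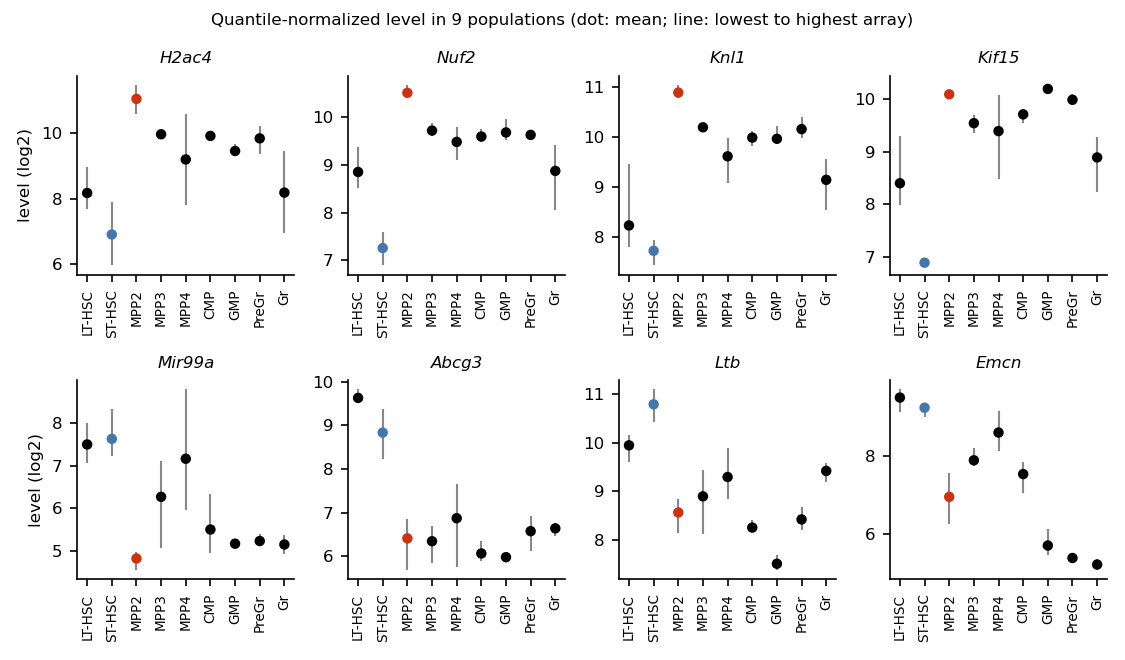
Quantile-normalized log2 levels of the 4 genes with the largest rise and the 4 with the largest fall in the 9 populations, with dots for means (blue ST-HSC, red MPP2) and lines from the lowest to the highest of 3 to 5 arrays. Kif15 and Nuf2 have their lowest mean in ST-HSC. Mir99a has its lowest in MPP2, with Gr at 5.16, GMP at 5.18, PreGr at 5.24 and CMP at 5.51. Populations other than ST-HSC, MPP2 and MPP3 were deposited on other scales.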

How the data were processed

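The members and gene lists were chosen with earlier results of these data known. Per the submitters' processing notes the authors normalized with RMA (version not stated) and deposited log2 values. The array medians, 6.19 to 7.83 over 31 arrays, show several scales, and the 6 arrays compared share 1 with MPP3 1 and 2. The chosen genes follow a naming rule: the 12 largest rises and 12 largest falls among the called genes, given non-overlapping groups (predicted and unnamed genes passed over), up to 8 called members of each list, key members and sort markers. Other genes named were chosen after their values were seen.

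The platform annotation gives 1 gene for 21789 of 35557 probes, several genes for 1621 and no gene for 12147. Symbols were updated through 21698 gene identifiers, which left 91 probes without a match. For 999 genes with more than 1 probe the one brightest over the 6 arrays was taken, so that 19938 genes were tested. Near-identical genes (histones, Gimap, Gbp) and overlapping genes may share signal. Genes without a probe of their own were not analysed here.

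limma 3.58.1 in R 4.3.3 (lmFit, eBayes) fitted 1 mean per population, with 4 residual and 3.23 prior degrees of freedom for 6 arrays and 5 residual for 8. In 5 simulations for MPP2 against ST-HSC, on 19938 genes, 89 to 93 of 100 genes changed 2-fold and 99 to 100 of 100 changed 4-fold were recovered, with 8 to 14 unchanged genes called. The simulated noise was independent and normal, with each gene's moderated SD, equal in both groups and with no deviant array. The real MPP2 arrays correlated less with each other than the ST-HSC arrays did, so these shares do not give the recovery in the real arrays. Plots came from matplotlib 3.10.9 (Python 3.11.15). The number of arrays limits the precision. Alternatives were normalization, samples, filters, variance model, probes, a minimum change, a replicate block and each array left out.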

Additional observations from a re-analysis of the deposited data

Results flagged for a closer look

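In groups of 4 to 10 arrays, an array was singled out when its gap to the nearest other exceeded Dixon's 95% critical value, which chance does in about 1 in 20 groups. Kif15 stood at 9.29 in LT-HSC 4, against 7.98 to 8.18 in the other 3 LT-HSC arrays (quantile-normalized log2). Knl1 stood at 9.46 in LT-HSC 4, against 7.80 to 7.83, and at 10.22 in GMP 4, against 9.85 to 9.91 in the other 3 GMP arrays. LT-HSC 4 and GMP 4 also lie on a deposited scale other than that of their groups, with medians of 6.91 and 6.86 against 6.19 to 6.22 and 7.27 to 7.29. Groups of 3, such as ST-HSC and MPP2, were not tested.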

How the results depend on the processing

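For MPP2 against ST-HSC the count of 487 (257 higher, 230 lower) was 1368 (572, 796) with all 31 arrays quantile-normalized, 804 with the MPP3 arrays added (439 lower), 219 (155, 64) over all 35557 probes and 66 (60, 6) against a minimum change of 1.5-fold. Of the 1368 calls 449 were among the 487. With all 31 arrays as deposited 165 were higher. Leaving out 1 array gave 148 to 600 genes, 113 to 238 higher and 35 to 387 lower. Quantile normalization of the 6 arrays, the low filter, the trended robust prior, array weights and the mean of probes stayed within 1.5 times.

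Same-numbered arrays had residual correlations of -0.0948, 0.0722 and -0.17, and arrays of unlike number -0.125 to 0.241. With 3 arrays per group, these values cannot settle whether the replicate numbers pair the samples. The replicate block gave 302 genes (122 lower) for MPP2 against ST-HSC, 11 (1 higher, 10 lower) for MPP2 against MPP3, and 102 for MPP3 against ST-HSC.

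For MPP2 against MPP3 the 39 genes became 211 (56, 155) with 31 quantile-normalized arrays, 4 were higher after quantile normalization of the 8 arrays, and leaving out 1 array gave 10 to 75 genes, 1 to 5 higher and 9 to 70 lower. MPP3 against ST-HSC called 246 genes, 660 with 31 quantile-normalized arrays and 58 to 315 without 1 array. The causes were not tested.

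Of 83 named called genes 29 were called without each array. Of the uncalled ones printed, signs turned for Cdkn1c (-0.0156 without ST-HSC 2, -0.0028 without MPP2 2), Myc (0.0708 without ST-HSC 2, 0.0878 without MPP2 1) and Gata2 (-0.0061 without MPP2 3). Their ranges without 1 array were -0.0156 to 0.0571, -0.0709 to 0.0878 and -0.0061 to 0.363.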

Other observations

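Replication-dependent histone genes, whose transcripts build up in S phase and which were grouped after their values were seen, rose in 15 of 26 measured and fell in none (median 1.13, against 1.29% of all genes called higher). H2ac15 stood at 9.90, 10.29 and 9.73 in ST-HSC and at 12.22, 12.37 and 12.21 in MPP2 (2.29 ± 0.15, limma adjusted p = 0.000865), and the linker histone gene H1f1 at 8.83, 8.52 and 8.58 against 10.57, 10.45 and 10.71 (1.93 ± 0.12, adjusted p = 0.000696). Without ST-HSC 1 the count was 6, and without ST-HSC 3 it was 10. H2bc4 was not called (adjusted p = 0.343): it stood at 9.11 and 8.98 in MPP2 1 and 3, at 5.94 in MPP2 2 and at 9.46 or above in ST-HSC. Near-identical copies may share probe signal. Of 8 replacement histone genes 3 rose, with the DNA damage histone gene H2ax at 1.54 ± 0.10 (adjusted p = 0.000841), and without any 1 array only 1 of the 8 was called higher.

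The Gimap GTPase genes, a cluster of lymphocyte survival genes, lay below 0 in 8 of 8 (median -0.98), and 4 of 8 fell (1.15% of all genes called lower): Gimap6, Gimap1 (-1.17 ± 0.16, adjusted p = 0.0149), Gimap9 (-1.12 ± 0.22, adjusted p = 0.048) and Gimap8 (-1.08 ± 0.14, adjusted p = 0.0114). Only Gimap6 held without each array; the others reached 0.0707 without ST-HSC 2 or 3 (Gimap1), 0.0663 without ST-HSC 1 or 3 (Gimap8) and 0.185 without arrays other than MPP2 3 (Gimap9). Guanylate-binding and immunity-related GTPase genes, effectors of interferon gamma, lay below 0 in 12 of 12 (median -1.11), and 4 fell, among them Gbp8 (-1.35 ± 0.19, adjusted p = 0.0162, up to 0.0723 without ST-HSC 1 or 3). None of these 4 calls held without each array in turn. These families too were grouped after their values were seen. Of others so grouped, Schlafen, Kruppel-like factor and tetraspanin genes fell in 1 of 7, 1 of 17 and 2 of 26 (medians 0.03, -0.07 and -0.07).

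Omd (1.95 ± 0.24, adjusted p = 0.0104), Aspn (1.82 ± 0.26, adjusted p = 0.0164) and Ogn (1.16 ± 0.11, adjusted p = 0.00334), genes of extracellular matrix proteoglycans, were also called higher in MPP2. In the annotation all 3 lie within the centromere gene Cenpp, which rose by 1.85 ± 0.23 (adjusted p = 0.00981), as does Ecm2, which was not called (0.34 ± 0.19, adjusted p = 0.446). Omd ended without ST-HSC 1 (adjusted p = 0.0663), Cenpp without ST-HSC 1 or 3 (up to 0.0586) and Aspn without any of the 3 ST-HSC arrays (up to 0.0802). Which transcript these probes read was not tested.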
